A study of Rattus norvegicus with 6 samples.

Results

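The genes described here control the first steps of glucose use in muscle: the hexokinases Hk1 and Hk2, and the glucose transporters Slc2a1 (GLUT1) and Slc2a4 (GLUT4). All probe sets (groups of short probes for one transcript) to which the platform annotation gives the single symbol of 1 of these 4 genes were taken, 8 of 15923 in all. There were 4 for Hk1, of which 3 were control probe sets, 1 for Hk2, 1 for Slc2a1 and 2 for Slc2a4. They were measured in the tibialis anterior of both legs of 3 male Wistar rats, aged 8 weeks, 1 array per muscle. Under ketamine and xylazine anaesthesia the peroneal nerve had been cut and its end sewn to the biceps femoris. Its stumps were joined after 4 weeks, and survival was 8 weeks, counted from a point the labels do not name. The ipsilateral group is the muscle on the operated side. The contralateral group is the same muscle of the other leg, in the same operated animals, so no muscle of an unoperated rat was part of the comparison. The animals carry the numbers 4, 5 and 6.

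Glucose enters a muscle fibre through transporters in its surface. GLUT1 sits there permanently and supplies basal uptake. GLUT4, the insulin- and contraction-responsive transporter, is held in vesicles inside the fibre until either signal moves it to the surface. Inside, a hexokinase adds a phosphate and so traps the sugar as glucose 6-phosphate. Hexokinase I is found in most tissues, whereas hexokinase II is the main form of insulin-responsive muscle. In muscle, GLUT4 and hexokinase II are known to respond to activity and innervation.

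None of the 4 genes passed the adjusted threshold between the muscles. The brighter Slc2a4 probe set was 2.6 to 9.3% higher ipsilaterally in all 3 animals, which is within the error of limma's fit. The dimmer one was higher in animal 4 and lower in animals 5 and 6. Hk2 was the most variable, with an ipsilateral intensity 2.30 times the contralateral one in animal 4 and 0.394 times in animal 6. Hk1 and Slc2a1 were 1.51 and 1.61 times as bright ipsilaterally in animal 4, but near or on either side of equality in animals 5 and 6. The lowest array of every tested member was contralateral 4 or ipsilateral 6.

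Values are array intensities on a linear scale, and group values are means ± SD of 3 arrays. Differences are log2 of ipsilateral over contralateral intensity with 15.8 added to each intensity, and carry the standard error (SE) and 95% interval of limma's paired fit. This SE combines a probe set's own spread with that of the tested probe sets in general. For Hk2 it is smaller, and for the brighter Slc2a4 probe set larger, than their own 3 differences would give. The added constant shrinks differences of dim probe sets. Intensities of different probe sets cannot be ranked against each other, because probes bind unequally. Tissue identity was clear: all 22 skeletal muscle markers were tested, with mean intensities from 479 to 6746. In limma's paired fit, 0 of 9519 tested probe sets (0%) passed an adjusted p of 0.05 (Benjamini-Hochberg) and 605 (6.36%) an unadjusted one. Of the 5 tested member probe sets, 0 passed either threshold. None of the 5 was without overlap between the groups, where 4.74% of tested probe sets were wholly higher and 5.78% wholly lower ipsilaterally. Every array had a trimmed mean of about 150, and medians ran from 60.2 to 66.6.

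Slc2a4, the transporter of insulin and contraction, had a contralateral intensity on its brighter probe set (1367989_at) of 1596, 1815 and 2144 in animals 4, 5 and 6. The ipsilateral values were 1729, 1862 and 2343. The groups overlapped widely, and the order of the animals was the same in both muscles, with animal 4 lowest and animal 6 highest. The group means were 1852 ± 276 and 1978 ± 323. The log2 difference was 0.09 (SE 0.13, 95% interval -0.19 to 0.38; limma adjusted p = 0.921), or 1.07-fold with an interval of 0.876 to 1.3. It was 0.11, 0.04 and 0.13 in animals 4, 5 and 6. The SD of these differences, 0.05, was so small that only 2.68% of tested probe sets had a smaller one. Higher values in all 3 animals were found for 12.3% of tested probe sets.

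The dimmer Slc2a4 probe set (1388958_a_at) had contralateral intensities of 537, 656 and 500.2 in animals 4, 5 and 6, and ipsilateral ones of 691, 459 and 448. It was higher ipsilaterally in animal 4 and lower in the other 2 animals. The mean difference was -0.10 (SE 0.18, interval -0.51 to 0.31; limma adjusted p = 0.94), opposite in sign to that of the brighter probe set. Neither direction is therefore settled for Slc2a4. The means of both probe sets differed from 0 by less than their SE.

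Slc2a1, the basal transporter, had a contralateral intensity of 33.3, 78.5 and 53.0 in animals 4, 5 and 6. The ipsilateral values were 53.7, 78.2 and 44.6. Animal 5 was highest in both muscles, with nearly equal values, and contralateral 4 was the lowest array. The group means were 54.9 ± 22.7 and 58.8 ± 17.4. The difference was 0.10 (SE 0.19, interval -0.31 to 0.52; limma adjusted p = 0.939), from 0.50, -0.0046 and -0.19 in animals 4, 5 and 6. Without animal 4 it was -0.10. GLUT1 is also carried by endothelium and perineurium. In whole muscle RNA, a different number of such cells and a different amount of RNA per cell cannot be told apart. The summed intensity of 10 endothelial markers was 1145 to 1202 contralaterally and 1239 to 1636 ipsilaterally, without overlap. For 15 markers of perineurium, Schwann cells and nerve it was 1197 to 1294 and 1291 to 1506. For 5 erythroid markers it was 3469 to 3972 and 3095 to 3679. Bright genes weigh most in such sums. A single erythroid gene had a mean of 3314, and the highest endothelial gene mean was 294 beside a median of 97.2. Of the 10 endothelial markers, 4 were higher and 0 lower in all 3 animals, against 12.1% and 15.8% of all named genes. None of these markers was at 0 on any array, but each array held only 1 to 3 zeros among all probe sets. The filter was passed by 10 endothelial, 7 nerve and 3 erythroid markers, so part of the last 2 sums is dim. The part of these cells in the Slc2a1 values was not tested.

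**Figure D1:**
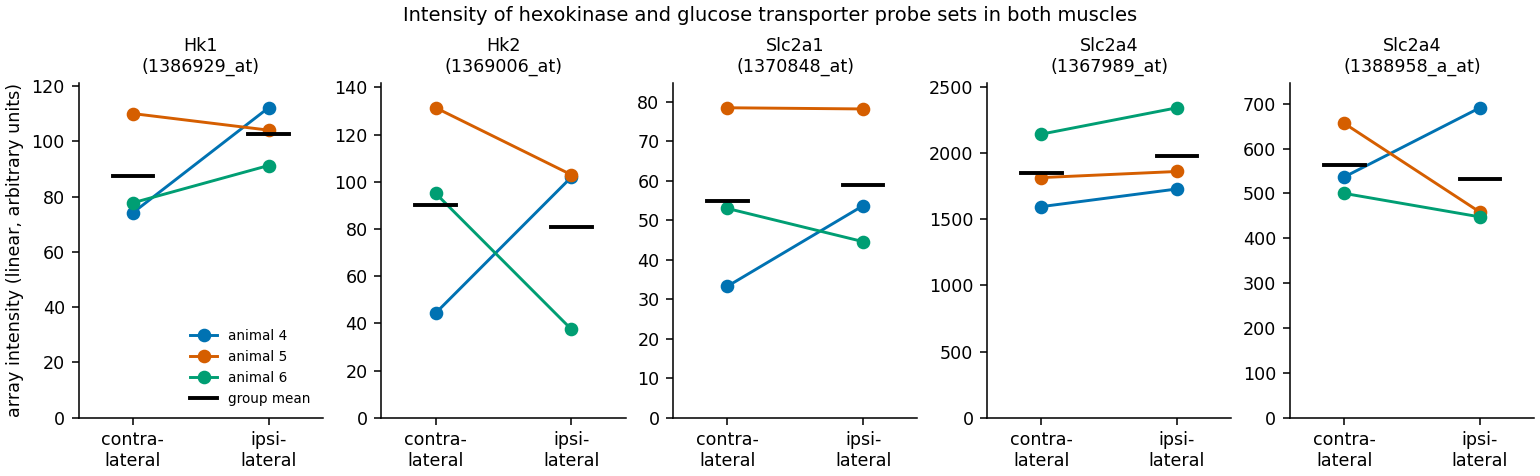
Array intensity (linear scale, arbitrary units) of the 5 tested probe sets in the contralateral and ipsilateral muscle, 1 line per animal, with black bars for the group means. The lines of the brighter Slc2a4 probe set run almost in parallel, while those of Hk2 cross, from 44.4 to 102.0 in animal 4 and from 95.1 to 37.5 in animal 6.

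Hk2, the muscle hexokinase, had a contralateral intensity of 44.4, 131 and 95.1 in animals 4, 5 and 6. The ipsilateral values were 102.0, 103.0 and 37.5. The low values were contralateral 4 and ipsilateral 6, 1 in each group, while the other 4 arrays lay between 95.1 and 131. The group means were 90.3 ± 43.7 and 80.8 ± 37.5. The difference was -0.13 (SE 0.31, interval -0.83 to 0.56; limma adjusted p = 0.958), a fold of 0.912 with an interval of 0.563 to 1.48. It was 0.97, -0.31 and -1.06 in animals 4, 5 and 6. Without animal 4 the difference was -0.68 (SE 0.22; limma unadjusted p = 0.0088, adjusted p = 0.136), and without animal 6 it was 0.33 (SE 0.31).

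The spread of the paired differences was large for Hk2 in this data set. With 1 array per muscle, variation of animals and of arrays cannot be told apart in it. The SD of the Hk2 differences, 1.02, exceeded that of 99.3% of tested probe sets, against 59.9% for Hk1, 73% for Slc2a1 and 83% for the dimmer Slc2a4 probe set. The highest intensity of Hk2 was 3.5 times its lowest, a ratio reached by 1.71% of tested probe sets. These shares are over tested probe sets of every intensity, not over those as dim as Hk2.

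Hk1, the widely expressed hexokinase, had a contralateral intensity on its main probe set (1386929_at) of 74.2, 110.1 and 77.8 in animals 4, 5 and 6. The ipsilateral values were 112, 104 and 91.3. Contralateral 5 lay among the ipsilateral values, and the other 2 contralateral arrays lay below all of them. The means were 87.4 ± 19.8 and 103 ± 10.5. The difference was 0.21 (SE 0.17, interval -0.16 to 0.58; limma adjusted p = 0.847), or 1.16-fold with an interval of 0.893 to 1.5. It was 0.51, -0.07 and 0.19 in animals 4, 5 and 6. Without animal 4 it was 0.06 (SE 0.18).

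The 3 control probe sets of Hk1 stand, by their names, for the 5' end, the middle and the 3' end of a hexokinase transcript. They were dimmer than the filter intensity of 42.4 on average and were not tested. The 5' set lay between 1.1 and 10.4 over the 6 arrays, the 3' set between 2.7 and 22.6, and the middle set between 23.6 and 46. On the same arrays, 27 control probe sets for bacterial transcripts had medians of 2.1 to 6.5 and highest values of 14.6 to 42.5. The middle set had group means of 36.8 ± 11.7 contralaterally and 32.9 ± 0.115 ipsilaterally. Contralateral 4 was the lowest array for the 5' and 3' sets, at 1.1 and 2.7. Both values lie below the highest bacterial one of that array, 14.6. For the middle set the lowest array was contralateral 6, at 23.6.

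**Figure D2:**
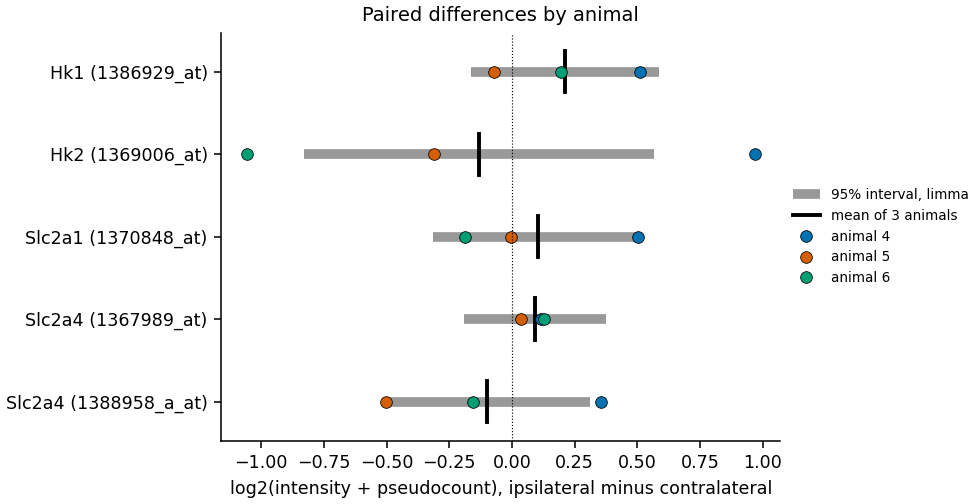
Paired log2 difference, ipsilateral minus contralateral, of the 5 tested probe sets, with 1 point per animal, a black bar for the mean and a grey bar for limma's 95% interval. Every interval includes 0, and the 3 points of Hk2 span -1.06 to 0.97, whereas those of the brighter Slc2a4 probe set span 0.04 to 0.13.

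Within an array, Hk2 changed relative to Hk1 by 0.46, -0.24 and -1.25 in animals 4, 5 and 6 on the log2 scale. The mean was -0.34 ± 0.86 (SD, n = 3; exact two-sided sign-flip permutation p = 0.75). Slc2a4 changed relative to Slc2a1 by -0.39, 0.04 and 0.32, with a mean of -0.01 ± 0.35 (exact two-sided sign-flip permutation p = 1, n = 3). With 3 animals, 0.25 is the smallest p this test can give. Unequal change of the hexokinases or of the transporters was thus not shown, in a design that cannot reach 0.05.

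Hk2 and Slc2a1 shared their lowest arrays. For all 5 tested member probe sets the lowest array was contralateral 4 (3 probe sets) or ipsilateral 6 (2), which held for 34.6% of all tested probe sets. For Hk2 and Slc2a1 these were the lowest 2 arrays, as for 8.29% of all tested probe sets. The 2 arrays were singled out after the member values were seen, so both shares are only a description. The other members did not share this: ipsilateral 6 was the highest array of the brighter Slc2a4 probe set, and contralateral 6 the second lowest of Hk1. All 5 member probe sets were higher ipsilaterally in animal 4, against 47% of those tested. Over the 6 arrays, log2 values of Hk2 and Slc2a1 had a Pearson correlation of 0.84, Hk1 and Slc2a1 of 0.74, and Hk1 and Hk2 of 0.61. The brighter Slc2a4 probe set and Hk2 gave -0.23, and the Slc2a4 probe sets gave -0.59 with each other. These describe 6 arrays of 3 animals and are not tests.

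Contralateral 4 and ipsilateral 6 also differed from the other arrays in the beta-actin control. The beta-actin ratio of 3' over middle probe set, which rises when RNA is degraded or incompletely copied, was 2.77 and 2.87 on these 2 arrays and 1.36 to 1.68 on the other 4. The 3' to 5' ratio of beta-actin was 1.54 and 2.06, against 1.31 to 1.55. The same ratios of GAPDH did not set them apart: 3' over middle was 1.15 and 1.19, within the 1.02 to 1.21 of the others, and 3' over 5' was 1.12 and 1.15, within their 1.02 to 1.16. The part of RNA quality in the member values was not tested. In an unpaired fit without both arrays, chosen after seeing the data, the difference was -0.11 (SE 0.21) for Hk2, 0.01 (SE 0.24) for Slc2a1, 0.19 (SE 0.21) for Hk1 and -0.14 (SE 0.16) for the brighter Slc2a4 probe set. The sign of Slc2a4 turned in that fit, and none of the 4 passed (limma adjusted p = 0.982 to 0.999). That fit compared contralateral 5 and 6 with ipsilateral 4 and 5, so differences between animals enter it. For the brighter Slc2a4 probe set it left out the lowest contralateral and the highest ipsilateral array. The paired differences of that probe set were 0.11, 0.04 and 0.13 in animals 4, 5 and 6.

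**Figure D3:**
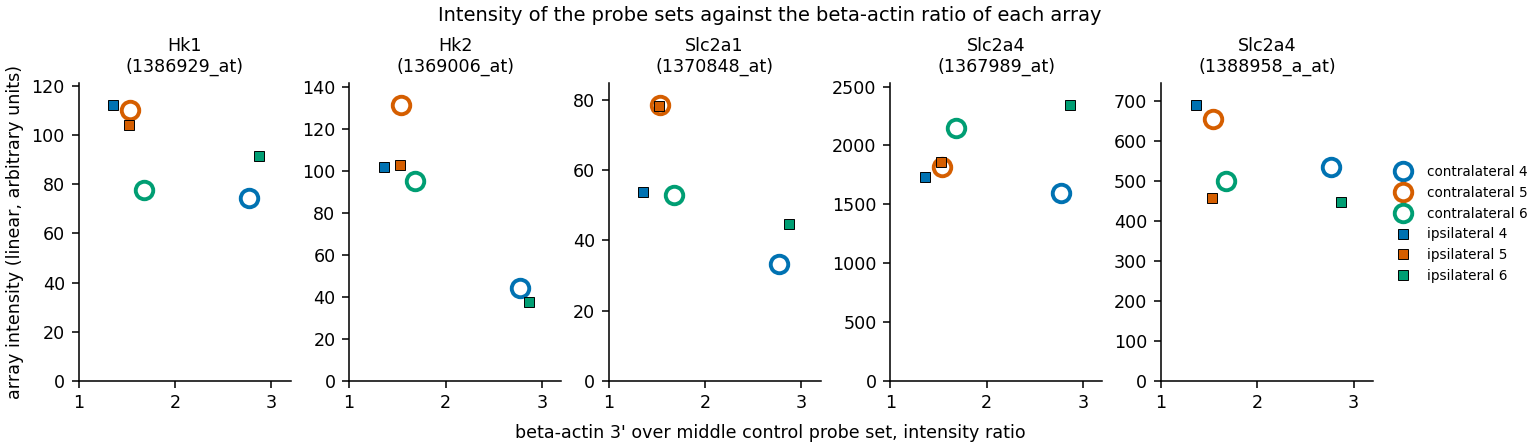
Array intensity (linear scale, arbitrary units) of the 5 tested probe sets against the beta-actin control ratio (3' over middle probe set) of the same array, with open circles for contralateral and squares for ipsilateral arrays, coloured by animal. Contralateral 4 and ipsilateral 6, at ratios of 2.77 and 2.87, hold the 2 lowest intensities of Hk2 and of Slc2a1 but not of the Slc2a4 probe sets.

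The genes closest in pattern to each member were found by Pearson correlation of log2 values over the 6 arrays, among 7116 other named genes. They were Snx17, Lima1 and Tspan4 for Hk1 (0.99, 0.99 and 0.97), and Prorp, Gpx4 and Socs2 for Hk2 (0.99, 0.98 and 0.98). For Slc2a1 they were Ctu2, Itga6 and Cav2 (0.997, 0.99 and 0.98), and for the brighter Slc2a4 probe set Dhx9, Dyrk1a and Retreg1 (0.99, 0.98 and 0.97). With so many genes compared over 6 arrays, these values are given only as a description.

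Genes around these steps were described from 10 lists, with 118 tested genes, each by its brightest tested probe set. At an unadjusted p under 0.05, 4 of the 118 were higher and 7 lower, against 3.54% and 2.88% of all 7117 named genes. At the adjusted threshold there were 0, so the differences below are measured values that did not reach it. The median difference was -0.03, against -0.02 over all named genes. In all 3 animals, 14 were higher and 23 lower, where the shares over all named genes were 12.1% and 15.8%.

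Among other genes tied to sugar phosphorylation, Adpgk, which uses ADP as its phosphate donor, differed by 0.23 (SE 0.16) and Gckr by -0.10 (SE 0.19), both tested. Hk3 and Hkdc1 were not analysed here. Of 7 other sugar transporters, Slc2a8 differed by -0.25 (SE 0.19), with -0.77 in animal 4, and the inositol transporter Slc2a13 by -0.03 (SE 0.20). The other 5 lay below the filter. They included the neuronal transporter Slc2a3, at 39.1 ± 6.13 contralaterally and 43.7 ± 2.8 ipsilaterally, and the fructose transporter Slc2a5, at 41.9 ± 2.01 and 25.7 ± 18.5.

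Of 26 tested genes of GLUT4 vesicle traffic, 8 were lower and 0 higher in all 3 animals, against 15.8% and 12.1% of all named genes. The median was -0.03, and 1 lower and 0 higher had an unadjusted p under 0.05. Sort1, the sorting receptor sortilin of the GLUT4 vesicle, differed by -0.34 (SE 0.15), from 227 ± 34.7 to 177 ± 42.5. Its dimmer probe set gave -0.15. Nsf, the ATPase that recycles fusion complexes, differed by -0.34 (SE 0.17), Vps45 by -0.35 (SE 0.19) and the syntaxin-binding Stxbp3 by -0.27 (SE 0.17). The probe sets of Nsf below the filter gave 0.24 and 0.45. Insulin signalling had 18 tested genes, with a median of 0.08. In all 3 animals 5 of them were higher and only Grb2 was lower, against 12.1% and 15.8% of all named genes. An unadjusted p under 0.05 was found for 0 of them. Akt2, the kinase that passes the insulin signal to GLUT4, differed by 0.24 (SE 0.16), but its other 2 tested probe sets gave -0.03 and -0.04. The lipid raft protein Flot2 differed by 0.26 (SE 0.15), the adaptor Grb2 by -0.22 (SE 0.15) and the muscle caveolin Cav3 by 0.19 (SE 0.15). The other tested probe set of Grb2 gave 0.03.

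Of 13 genes of AMPK and contraction signalling, the insulin-independent route to GLUT4, 2 were higher at an unadjusted p under 0.05 and 0 lower. The median was -0.11. Prkaa1, a catalytic subunit of the energy sensor AMPK, had contralateral and ipsilateral means of 179.9 ± 21.8 and 283 ± 48.2. Its difference of 0.61 (SE 0.16) was positive in every animal, with 0.70, 0.79 and 0.32 in animals 4, 5 and 6 (limma adjusted p = 0.529). A probe set of Prkaa1 below the filter gave -0.03. Prkaa2, the other catalytic subunit, was chosen after its values were seen. It differed by 1.07, -0.93 and -1.91 in animals 4, 5 and 6, the same signs as Hk2. The mean difference of Prkaa2 was -0.59 (SE 0.43; limma adjusted p = 0.846). Its intensity on ipsilateral 6 was 6.3, below the highest bacterial control value of that array, 20.9. Prkab2, Camk2g and Nos1 of this list had the same signs. So did genes of the other lists, among them Rxra, Nfib, Vamp2, Vdac1, Vdac2 and Slc2a13. These signs were thus not particular to genes of AMPK and contraction signalling. The share of all tested probe sets with these signs was not counted. Camk2d, a calcium-activated kinase, differed by 0.56 (SE 0.21) and Cab39, a partner of the AMPK-activating kinase, by 0.46 (SE 0.21), each below 0 in animal 4 on the brightest probe set. The other tested probe sets gave -0.06 and 0.14 for Camk2d and 0.25 for Cab39, all above 0 in animal 4. The AMPK subunit Prkab1 differed by -0.23 (SE 0.15).

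Among 21 transcription regulators linked to Hk2 or Slc2a4, 1 was higher and 3 were lower at an unadjusted p under 0.05, with a median of 0.06. The activity-induced Egr1 went from 181 ± 34.1 to 122 ± 10.2, a difference of -0.51 (SE 0.15). Rxrg, a retinoid receptor of muscle, went from 456 ± 51 to 321 ± 50.9, a difference of -0.49 (SE 0.15). Both were lower in all 3 animals. Nr4a1, an orphan nuclear receptor, differed by -0.43 (SE 0.18). Hif1a, the hypoxia-inducible factor, differed by 0.49 (SE 0.20), and the values of animals 4, 5 and 6 were -0.07, 0.89 and 0.64. A Hif1a probe set below the filter gave -0.09.

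Of 9 genes of the outer mitochondrial membrane and its partners, where hexokinases dock, 0 had an unadjusted p under 0.05. The docking channel Vdac1 differed by -0.19 (SE 0.14), the nucleotide carriers Slc25a4 and Slc25a5 by -0.21 (SE 0.13) and 0.15 (SE 0.16), and Tspo by 0.31 (SE 0.19). Slc25a4 was at -0.04 with quantile normalization, Slc25a5 at 0.01 without animal 6 and Tspo at 0.06 without animal 5. The other probe set of Vdac1 gave -0.34. Among 15 genes of the pathways that glucose 6-phosphate enters, 2 were lower at that threshold and 0 higher, namely Pgm1 at -0.37 and Pfkm at -0.43. The other tested probe sets of Pgm1 and Pfkm gave -0.40 and -0.64, but 0.31 and 0.32 in animal 4. With quantile normalization Pfkm was at -0.30 (limma unadjusted p = 0.0718). Gpi, which turns glucose 6-phosphate into fructose 6-phosphate, differed by -0.37 (SE 0.17) and Taldo1, of the pentose phosphate pathway, by -0.28 (SE 0.15). The median of the 15 genes was -0.10, with -0.38 in animal 5.

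Txnip, an inhibitor of glucose uptake, went from 2365 ± 283 to 1947 ± 301, a difference of -0.28 (SE 0.14) that was negative in all 3 animals. Of the related arrestin and sensor genes, Arrdc3 differed by 0.35 (SE 0.21), Mlx by -0.24 (SE 0.16) and Mlxip by 0.09 (SE 0.15), and 0 of the 4 genes of this list had an unadjusted p under 0.05. At the exit of glycolysis, with 8 tested genes, 1 was higher and 1 lower. Ldhb, the lactate dehydrogenase subunit of oxidative tissue, went from 992 ± 215 to 1613 ± 621, a difference of 0.63 (SE 0.18). Slc16a3, the lactate exporter of fast fibres, went from 1973 ± 312 to 1361 ± 364, a difference of -0.55 (SE 0.18). Both had 1 direction in all 3 animals (limma adjusted p = 0.545 and 0.586). The fast-fibre subunit Ldha differed by -0.25 (SE 0.13) and the lactate importer Slc16a1 by 0.24 (SE 0.16).

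**Figure D4:**
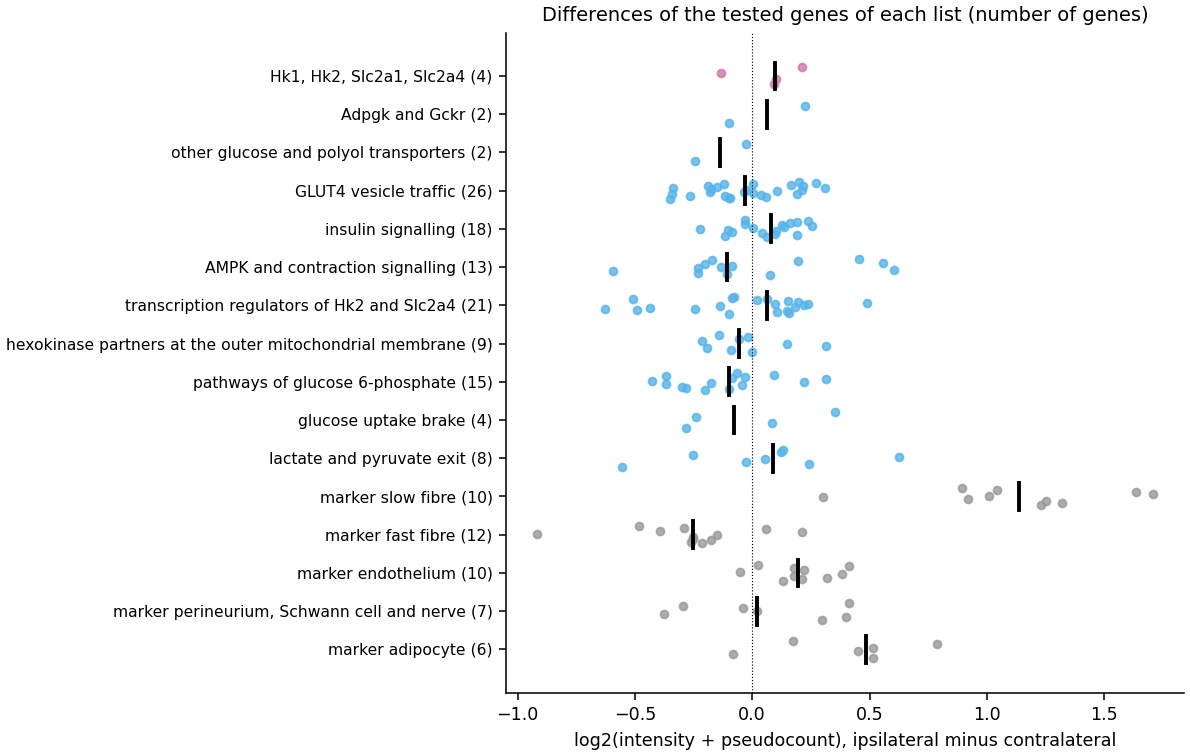
Log2 difference, ipsilateral minus contralateral, of each tested gene (1 point per gene, brightest probe set), by list, with black bars for the list medians and the number of tested genes in brackets. The 4 genes of glucose entry and phosphorylation lie between -0.13 and 0.21, while the slow-fibre markers have a median of 1.14.

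Markers of fibre type and of other cells are given beside these values, and 0 of them passed the adjusted threshold. The median difference was 1.14 for 10 slow-fibre markers, of which 7 were higher in all 3 animals. It was -0.25 for 12 fast-fibre markers, of which 4 were lower in all 3. Over all named genes, 12.1% were higher and 15.8% lower in all 3 animals. The slow-fibre median was 0.27, 2.01 and 1.11 by animal, for animals 4, 5 and 6. In the same order of animals, Hk1 gave 0.51, -0.07 and 0.19, Hk2 0.97, -0.31 and -1.06, and Slc2a1 0.50, -0.0046 and -0.19. The Slc2a4 probe sets gave 0.11, 0.04 and 0.13 (brighter) and 0.36, -0.50 and -0.15 (dimmer). Adipocyte markers matter here because adipocytes also carry GLUT4. Of 6 tested, 3 were higher in all 3 animals, against 12.1% of all named genes, with a median of 0.48. The summed adipocyte markers ran from 3388 to 4046 contralaterally and from 3431 to 5658 ipsilaterally. The medians were -0.26 for 16 markers of macrophages and other immune cells, 0.0008 for 12 of fibroblasts and tendon and -0.06 for 8 of smooth muscle and pericytes. The part of these cells in the member values was not tested.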

How the data were processed

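The deposited values are array intensities on a linear scale, normalized by the authors to a trimmed mean of about 150. Their software is not given in the sources here. Samples were grouped by title, with Cont read as contralateral and the number as the animal. Platform annotation, which can be old, gave 1 symbol for 12789 of 15923 probe sets, of which 12754 were found by gene ID in a RefSeq table of GRCr8 (names only). Values were used as log2(intensity + 15.8), the 20th percentile. Non-control probe sets with a mean above the 40th percentile (log2 5.86) were tested, which left 9519. The fit was limma 3.58.1 in R 4.3.3 (lmFit, eBayes with trend), with the animal as a block, 2 residual and 7.47 prior degrees of freedom, and Benjamini-Hochberg adjustment over all tested. Pairing comes from the design: both muscles are of 1 animal. Deviations correlated at -0.04, 0.07 and 0.13 in animals 4, 5 and 6. Relative changes were tested by exact sign-flip permutation.

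The ipsilateral against contralateral fit was tested on simulated data (9519 probe sets). Changes of 1.5-fold were called in 38.8%, of 2-fold in 97% and of 4-fold in 100%, with 13 false calls among 9319. These shares assume equal changes in every animal and normal noise with limma's moderated variance, so they can be too high for these data. The 10 slow-fibre markers, with a median difference of 1.14, gave 0 past the adjusted threshold. Members, lists and tests were chosen with earlier results of these data known. Named genes were all member probe sets, up to 4 genes per pathway list with the smallest p, and the 3 of closest pattern to each member. The 2 brightest genes of each marker list, also part of that rule, are given only within the summed lists. Prkaa2, and genes named only for having the signs of Hk2, were named outside that rule. Plots used matplotlib 3.10.9 (Python 3.11.15).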

Additional observations from a re-analysis of the deposited data

How the results depend on the processing

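No probe set passed under the alternatives of pairing (no replicate block), pseudocount, normalization, filter and variance prior, and none of the 4 genes passed in any fit that held it. The filter at the 60th percentile left out Hk2 and Slc2a1. The count of probe sets past the adjusted threshold was 0 to 241 on leaving out 1 animal, 241 being without animal 4, and 1 in the unpaired fit without contralateral 4 and ipsilateral 6, chosen after seeing the data. The pathway genes with an unadjusted p under 0.05 numbered 11, and 1 to 30 on leaving out 1 animal (30 without animal 4, 1 without animal 5), and 5 in that unpaired fit. Without the replicate block that number was 10.

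On leaving out 1 animal, the difference ranged from -0.68 to 0.33 for Hk2, from -0.10 to 0.25 for Slc2a1, from 0.06 to 0.35 for Hk1 and from 0.08 to 0.12 for the brighter Slc2a4 probe set, but from -0.33 to 0.10 for the dimmer one. Slc2a4 turned to -0.10 with its other probe set and to -0.14 in the unpaired fit, in which differences between animals enter. Hk2 relative to Hk1 ranged from -0.75 to 0.11. Slc2a4 relative to Slc2a1 ranged from -0.17 to 0.18, and was 0.023 with the pseudocount at the 40th percentile and 0.0081 with quantile normalization. Other signs turned without 1 animal for Gckr (-0.30 to 0.10), Slc2a8 (-0.38 to 0.018) and Slc2a13 (-0.31 to 0.15), and for Mlxip in the unpaired fit (-0.067). Of the 36 named pathway genes, 25 moved by over 1.5 times without at least 1 animal and 4 under another setting of all 6 arrays. Without animal 4, 5 of them, chosen for small p on these arrays, passed the adjusted threshold, as did 2.53% of all tested probe sets: Camk2d at 0.89, Cab39 at 0.76, Hif1a at 0.76, Pfkm at -0.65 and Ldhb at 0.86. The cause was not tested. That fit has 1 residual degree of freedom. How far signal over background limits Hk2 and Slc2a1 was not tested.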
